A study of Homo sapiens with 6 samples.

Results

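Beta-catenin (CTNNB1) and 9 genes that control its stability or its output were followed by name in a gene table of 58938 entries, and each of the 10 symbols matched 1 entry. They are the destruction complex genes APC, AXIN1, GSK3A, GSK3B and CSNK1A1, the ubiquitin ligase receptor BTRC, the DNA-binding partners TCF7L1 and TCF7L2, and the co-activator adaptor BCL9. The RNA came from HCT116, an established human colorectal cancer line, in 6 libraries. In 3 libraries the cells had received a vector, and in the other 3 a plasmid that overexpresses MST3, a serine/threonine kinase encoded by STK24; the genotype of all cells is labelled WT. The DNA was given by lipofection when cells had reached 60% density, with new medium at 6 hours and collection of RNA at 30 hours. The title of the series places MST3 upstream of YAP in colorectal cancer and names no Wnt gene. The transfection was transient, and the labels do not give the share of cells that took up the plasmid.

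In cells without a Wnt signal, the scaffolds APC and AXIN1 bring beta-catenin to the kinases casein kinase 1 alpha (CSNK1A1) and GSK3 (GSK3A and GSK3B). The kinases phosphorylate its amino terminus, and the F-box protein beta-TrCP (BTRC) then recognises it for ubiquitination and degradation by the proteasome. A Wnt signal blocks this complex, beta-catenin accumulates, enters the nucleus and binds TCF proteins, with BCL9 linking it to co-activators. This control acts mainly on the protein, which was not measured here. Most colorectal cancers keep the pathway active through loss of APC. HCT116 instead keeps APC and carries, on 1 allele of CTNNB1, an in-frame deletion of the serine codon that casein kinase 1 phosphorylates first. The values count reads of both alleles together.

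The stretch of CTNNB1 that the complex acts on is shown because 4 of the members (GSK3A, GSK3B, CSNK1A1 and BTRC) meet the protein there. It is the reference sequence of GRCh38 at chr3:41224606-41224650 on the plus strand, in exon 3 of 15 in the GENCODE 29 transcript used, and encodes codons 32 to 46 of a protein of 781 residues. Capitals mark the codons of serine 33, serine 37, threonine 41 and serine 45, of which the last is the casein kinase 1 site and the other 3 are the GSK3 sites. Beta-TrCP reads the phosphorylated start of the window.

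CTNNB1 codons 32 to 46: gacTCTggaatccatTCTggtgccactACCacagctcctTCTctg

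Levels are FPKM, fragments per kilobase of gene scaled to the size of each library, so levels of different genes can be set side by side. Differences are MST3 minus vector on the log2(FPKM + 1) scale, with standard error and 95% interval from a limma fit over 13036 genes, those whose mean over the 6 libraries was 1 FPKM or more. A gene was called at a Benjamini-Hochberg adjusted p under 0.05 over all of these genes. STK24 stood at 17.1, 17.4 and 17.4 FPKM in vector replicates 1 to 3 and at 63.7, 72.2 and 76.0 FPKM in MST3 replicates 1 to 3, and it was the single gene called. The 6 libraries held between 15289213 and 17708029 recovered reads, the fewest in MST3 replicate 1. MST3 replicate 1 also had reads on 27442 genes, against 25099 to 25501 in the other 5 libraries. Of 11 markers of colon epithelial cells, 6 had a mean of at least 1 FPKM, with EPCAM at 78.7 to 93.9 FPKM, while VIL1, LGALS4, CEACAM5 and CDX1, markers of differentiated colon, were at or near 0. Of 12 markers of leukocytes, fibroblasts and endothelium, COL1A1 alone reached 1 FPKM, and the summed level of the 12 was 4.35 to 4.82 FPKM with vector and 4.27 to 5.32 FPKM with MST3.

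The genes of the beta-catenin pathway did not pass the test after MST3 overexpression. All 10 members were tested, and limma called 0 of them, beside 0.00767% of all tested genes. At an unadjusted p under 0.05 it found 0 members, beside 5.38% of all tested genes. The limma-voom test on the recovered reads also found 0 members at either threshold, beside 867 of the 13036 tested genes at the unadjusted one. Without MST3 replicate 2, TCF7L2 and APC were under an unadjusted 0.05 by limma, beside 2554 of the 13036 tested genes. Their adjusted p was 0.239 and 0.226 by limma. The difference was below 0 for 8 members and above 0 for AXIN1 and CSNK1A1, with a median of -0.04 over the members and of -0.01 over all tested genes, of which 53.4% were below 0. The groups did not overlap for 2 members, beside 11.9% of all tested genes. Both of these, TCF7L2 and GSK3B, were lower in the MST3 libraries, beside 6.7% of all tested genes that were lower without overlap. All 10 intervals included 0, and together they ran from -0.51 to 0.37, which is a ratio of FPKM + 1 between 0.704 and 1.29. Single intervals were narrower, the narrowest being that of BCL9. A difference inside a gene's own interval remains compatible with these 3 libraries a group. The intervals are not adjusted for the 13036 genes tested, so a difference outside one might still not have been called. In bulk RNA, fewer cells that express a gene and less RNA per cell cannot be told apart, and neither can transfected and untransfected cells.

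**Figure D1:**
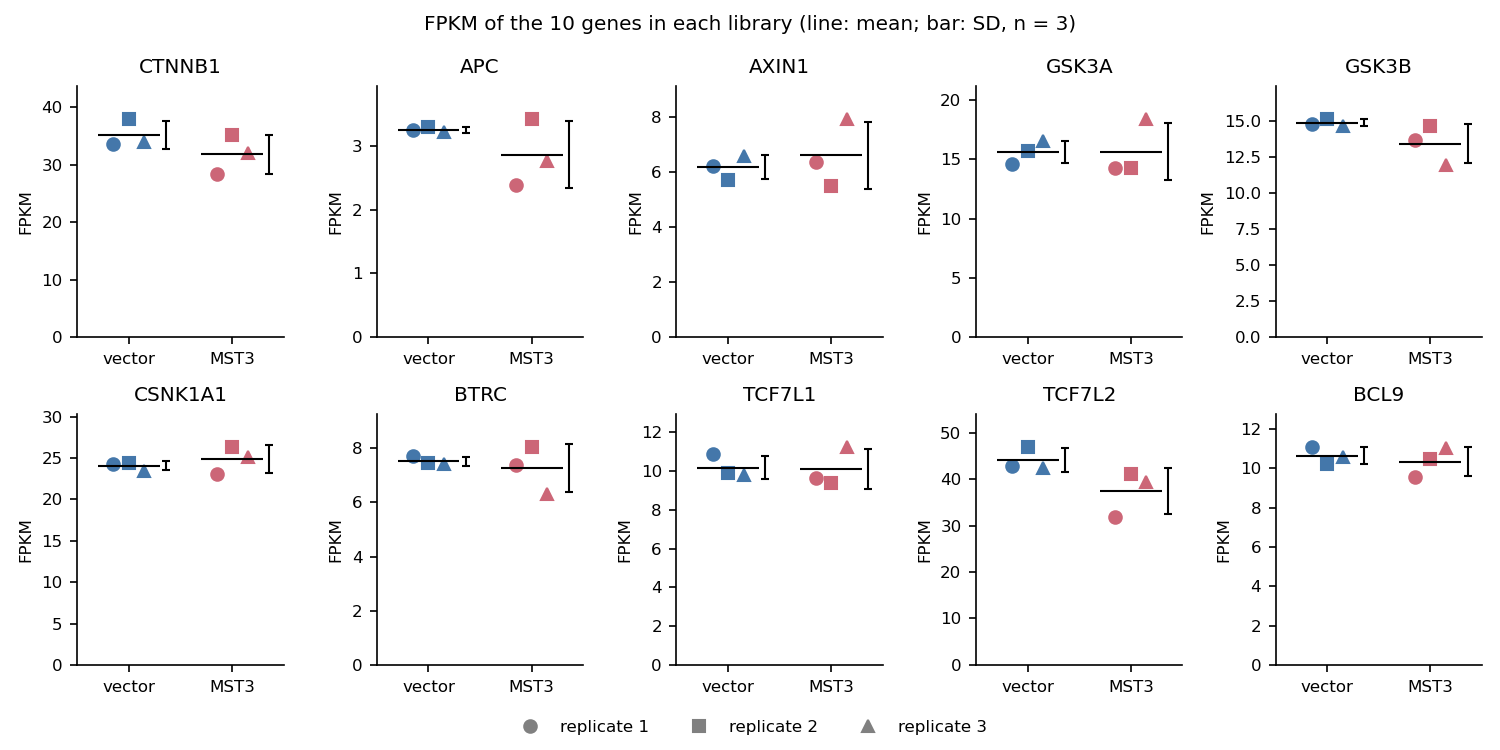
FPKM of each of the 10 genes in the 6 libraries, with each panel scaled to its own gene; symbols are libraries (circle, square and triangle for replicates 1, 2 and 3), horizontal lines are group means and the bars beside them are SD (n = 3). The MST3 points spread more widely than the vector points in each panel, and the groups separate only for TCF7L2 and GSK3B.

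CTNNB1 (ENSG00000168036, chromosome 3, 41194741 to 41260096, plus strand) encodes beta-catenin itself. Its level was 33.5, 37.97 and 34.0 FPKM in vector replicates 1 to 3 and 28.3, 35.1 and 32.0 FPKM in MST3 replicates 1 to 3. MST3 replicate 1 was the lowest of the 6 libraries, vector replicate 2 the highest, and the groups overlapped because MST3 replicate 2 lay above 2 of the vector libraries. The means were 35.2 ± 2.44 and 31.8 ± 3.37 FPKM (SD, n = 3 each), a ratio of 0.904, and the difference was -0.14 (standard error 0.11, interval -0.39 to 0.10, adjusted p = 0.725 by limma). Between 5389 and 7762 reads lay behind each value, so that counting error was 1.21% of the level, against a coefficient of variation of 6.92% between vector and 10.6% between MST3 libraries. Without MST3 replicate 1 the difference was -0.07, and without vector replicate 2 it was -0.09.

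TCF7L2 and TCF7L1 are HMG-box proteins of the TCF/LEF family, which carry beta-catenin to DNA and, without it, recruit repressors. TCF7L2 (ENSG00000148737, chromosome 10, 112950250 to 113167678, plus strand) showed the biggest difference of the 10 genes. It stood at 42.9, 47.0 and 42.3 FPKM with vector and at 31.9, 41.1 and 39.3 FPKM with MST3, so every MST3 library lay below every vector library, with a gap of 1.27 FPKM. The means were 44.1 ± 2.56 and 37.4 ± 4.89 FPKM (SD, n = 3 each), a ratio of 0.849. The difference of -0.24 (standard error 0.11, interval -0.51 to 0.03) had an unadjusted p of 0.0762 and an adjusted p of 0.719 by limma. MST3 replicate 1 was 0.45 below the vector mean on the log2 scale, and MST3 replicates 2 and 3 were 0.10 and 0.16 below it. Without MST3 replicate 1 the difference was -0.13. An antisense gene, AL158212.2, overlaps 300 bases of its exons, 4.45% of their length, and was listed at a mean of 0.108 FPKM.

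TCF7L1 (ENSG00000152284, chromosome 2, 85133410 to 85310388, plus strand) acts mainly as a repressor in this family. It was at 10.9, 9.87 and 9.77 FPKM with vector and at 9.66, 9.36 and 11.3 FPKM with MST3. Both the highest and the lowest library belonged to the MST3 group, and the means of 10.2 ± 0.611 and 10.1 ± 1.02 FPKM (SD, n = 3 each) were nearly equal. The difference was -0.01 (interval -0.23 to 0.21, adjusted p = 0.973 by limma). The ratio of TCF7L1 to TCF7L2, which cancels library scaling, was 0.253, 0.210 and 0.231 with vector and 0.303, 0.228 and 0.286 with MST3. The groups overlapped in this ratio, and the log2 ratio differed by 0.23 with a two-sided exact permutation p of 0.3, where 3 libraries against 3 allow no p below 0.1. Of the other 2 genes of the family, TCF7 was at 3.61 to 5.06 FPKM and LEF1 reached no more than 0.0214 FPKM, so TCF7L2 had the highest level of the 4 in each library.

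BCL9 (ENSG00000116128, chromosome 1, 147541412 to 147626216, plus strand) encodes the adaptor between beta-catenin and Pygopus proteins. Its levels were 11.1, 10.2 and 10.6 FPKM with vector and 9.54, 10.5 and 11.02 FPKM with MST3. The lowest value again came from MST3 replicate 1, and the other MST3 libraries lay within the vector range. The difference was -0.04 (standard error 0.08, interval -0.23 to 0.15, adjusted p = 0.894 by limma), the narrowest interval of the 10. Its paralog BCL9L was at 15.04 ± 0.893 FPKM with vector and 16.5 ± 2.86 FPKM with MST3 (SD, n = 3 each; difference 0.12, adjusted p = 0.779 by limma).

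APC (ENSG00000134982, chromosome 5, 112707498 to 112846239, plus strand) encodes the large scaffold that binds beta-catenin and AXIN1. It had the lowest level of the 10 genes, at 3.25, 3.31 and 3.21 FPKM with vector and 2.39, 3.43 and 2.77 FPKM with MST3. The vector libraries were close together at 3.26 ± 0.0460 FPKM (SD, n = 3), while the MST3 libraries, at 2.86 ± 0.526 FPKM (SD, n = 3), held both the lowest and the highest value. Counting error for 474 to 741 reads was 3.91% of the level, above the vector coefficient of variation of 1.41% and below the 18.4% between MST3 libraries. The difference was -0.15 (interval -0.41 to 0.11, adjusted p = 0.726 by limma), and it was -0.06 without MST3 replicate 1 and -0.25 when MST3 replicate 2 was left out.

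AXIN1 (ENSG00000103126, chromosome 16, 287440 to 352673, minus strand) encodes the scaffold whose protein is limiting for the complex. Values of 6.22, 5.71 and 6.58 FPKM with vector stood beside 6.37, 5.51 and 7.94 FPKM with MST3. MST3 replicate 2 was the lowest and MST3 replicate 3 the highest of the 6, with the vector libraries between them. AXIN1 had the widest interval of the members, -0.22 to 0.37 around a difference of 0.08 (adjusted p = 0.858 by limma), and the difference turned to -0.05 without MST3 replicate 3.

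GSK3A and GSK3B encode the alpha and beta forms of glycogen synthase kinase 3, which act interchangeably on beta-catenin. GSK3B (ENSG00000082701, chromosome 3, 119821323 to 120094417, minus strand) was at 14.7, 15.1 and 14.7 FPKM with vector and at 13.6, 14.6 and 11.95 FPKM with MST3. All MST3 libraries lay below the vector libraries, but the gap between MST3 replicate 2 and the nearest vector library was 0.0167 FPKM, well under the counting error of 2.25% of the level. The difference was -0.14 (standard error 0.09, interval -0.36 to 0.07, adjusted p = 0.719 by limma), and it was -0.07 without MST3 replicate 3.

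GSK3A (ENSG00000105723, chromosome 19, 42230186 to 42242625, minus strand) was at 14.6, 15.7 and 16.5 FPKM with vector and at 14.3, 14.3 and 18.4 FPKM with MST3. MST3 replicate 3 was the highest library and the other MST3 libraries were the lowest, while the means of 15.6 ± 0.950 and 15.7 ± 2.40 FPKM (SD, n = 3 each) hardly differed. The difference was -0.00 (interval -0.28 to 0.27, adjusted p = 0.991 by limma), and it was -0.12 without MST3 replicate 3. The ratio of GSK3A to GSK3B was 0.993, 1.04 and 1.13 with vector and 1.05, 0.976 and 1.54 with MST3. MST3 replicate 3 stood above the other 5 libraries, in which the ratio lay between 0.976 and 1.13. The log2 ratio differed by 0.15 between groups with a two-sided exact permutation p of 0.8.

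CSNK1A1 (ENSG00000113712, chromosome 5, 149492197 to 149551552, minus strand) encodes the kinase that phosphorylates serine 45. Its levels were 24.3, 24.4 and 23.4 FPKM with vector and 23.0, 26.4 and 25.1 FPKM with MST3. MST3 replicate 1 was the lowest library and the other MST3 libraries the highest, so the groups overlapped. The difference was 0.04 (interval -0.15 to 0.24, adjusted p = 0.883 by limma). CSNK1A1 shares 2886 bases, 37.4% of its exon sequence, with the annotated gene AC021078.1 on the same strand, which was listed at a mean of 4.66 FPKM and had a difference of -0.18 without overlap (adjusted p = 0.719 by limma), so its level is uncertain to the extent that reads of the shared part could be assigned to either gene. Of its near copies, CSNK1A1P1 had at most 7 reads in a library and CSNK1A1L and CSNK1A1P3 were listed at 0.

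BTRC (ENSG00000166167, chromosome 10, 101354033 to 101557321, plus strand) encodes beta-TrCP, the receptor that reads the phosphorylated window printed above. It was at 7.70, 7.45 and 7.40 FPKM with vector and at 7.39, 8.06 and 6.32 FPKM with MST3. The vector libraries were close together and the MST3 libraries enclosed them on both sides. The difference was -0.05 (interval -0.27 to 0.17, adjusted p = 0.878 by limma). Its paralog FBXW11, which also binds phosphorylated beta-catenin, was at 18.5 ± 0.483 FPKM in the vector and 16.8 ± 1.03 FPKM in the MST3 libraries (SD, n = 3 each); the difference of -0.13 was without overlap but not called (adjusted p = 0.719 by limma).

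**Figure D2:**
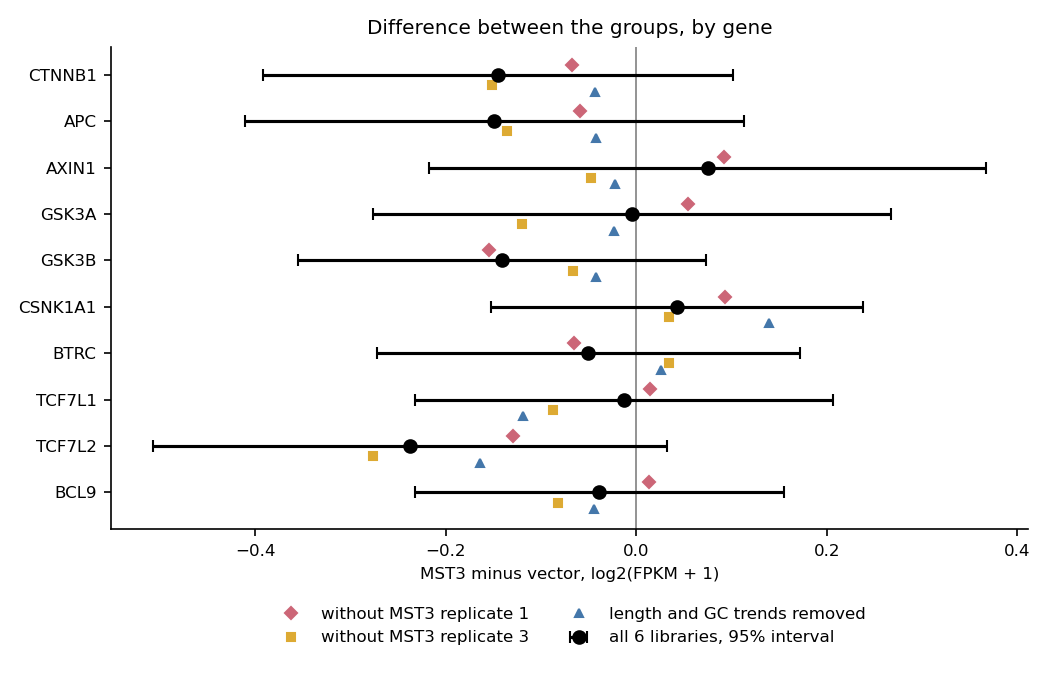
Difference between MST3 and vector libraries on the log2(FPKM + 1) scale for each of the 10 genes, with 95% intervals from limma (black), and the values without MST3 replicate 1, without MST3 replicate 3 and with length and GC trends removed (coloured symbols). Every interval includes 0, and the as-deposited differences run from -0.24 for TCF7L2 to 0.08 for AXIN1.

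The members varied more among the MST3 than among the vector libraries. On the log2 scale the SD of the 3 MST3 libraries was larger for 10 of 10 members, with a median of 0.153 against 0.0660, and it was larger for 77.2% of all tested genes; this was noticed after the values were seen and is a description. MST3 replicate 1 was the lowest library for 6 members, namely CTNNB1, APC, GSK3A, CSNK1A1, TCF7L2 and BCL9. Their deviations were uneven, from -0.45 relative to the vector mean for TCF7L2 to -0.06 for CSNK1A1. This library also had the fewest reads and the most genes with reads, and the part of either in these values was not tested. MST3 replicate 3 was the highest library for AXIN1, GSK3A and TCF7L1 and the lowest for GSK3B and BTRC. The median of the members, relative to the vector mean, was -0.12, -0.02 and -0.04 in MST3 replicates 1 to 3, while that of all tested genes was -0.03, -0.00 and -0.01.

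Base composition of the genes moved with these patterns. The GC content of the longest transcript ran from 39.4% for CSNK1A1, 39.6% for APC, 42.1% for GSK3B and 43.5% for CTNNB1 to 61.2% for TCF7L1 and 63.8% for AXIN1. In MST3 replicate 3, AXIN1 was 0.32 and TCF7L1 0.14 above the vector mean, whereas GSK3B was at -0.29, APC at -0.17 and CTNNB1 at -0.13. Over the 10 genes, which share these libraries, Pearson's r between GC content and the deviation from the vector mean was 0.483, -0.764 and 0.769 in MST3 replicates 1 to 3. In vector replicates 1 to 3 it was 0.369, -0.708 and 0.480, so the relation was not particular to the MST3 libraries. Across all tested genes the Spearman rho of the same deviation with GC content was 0.225, -0.234 and 0.686 in MST3 replicates 1 to 3. The vector replicates, which are themselves part of the vector mean, had 0.295, -0.442 and 0.263. Against the mean of all 6 libraries, the rho was -0.0981, -0.506 and -0.124 in vector replicates 1 to 3. It was 0.119, -0.507 and 0.698 in MST3 replicates 1 to 3. MST3 replicate 3 thus had the largest rho against either mean, and both libraries numbered 2 leaned the other way. The rho of the deviation from the vector mean with gene length was -0.305, -0.00989 and -0.161 in the MST3 replicates. When the length and GC trends were removed from each library, the members' median pooled SD went from 0.119 to 0.0679 and that of all tested genes from 0.137 to 0.107.

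**Figure D3:**
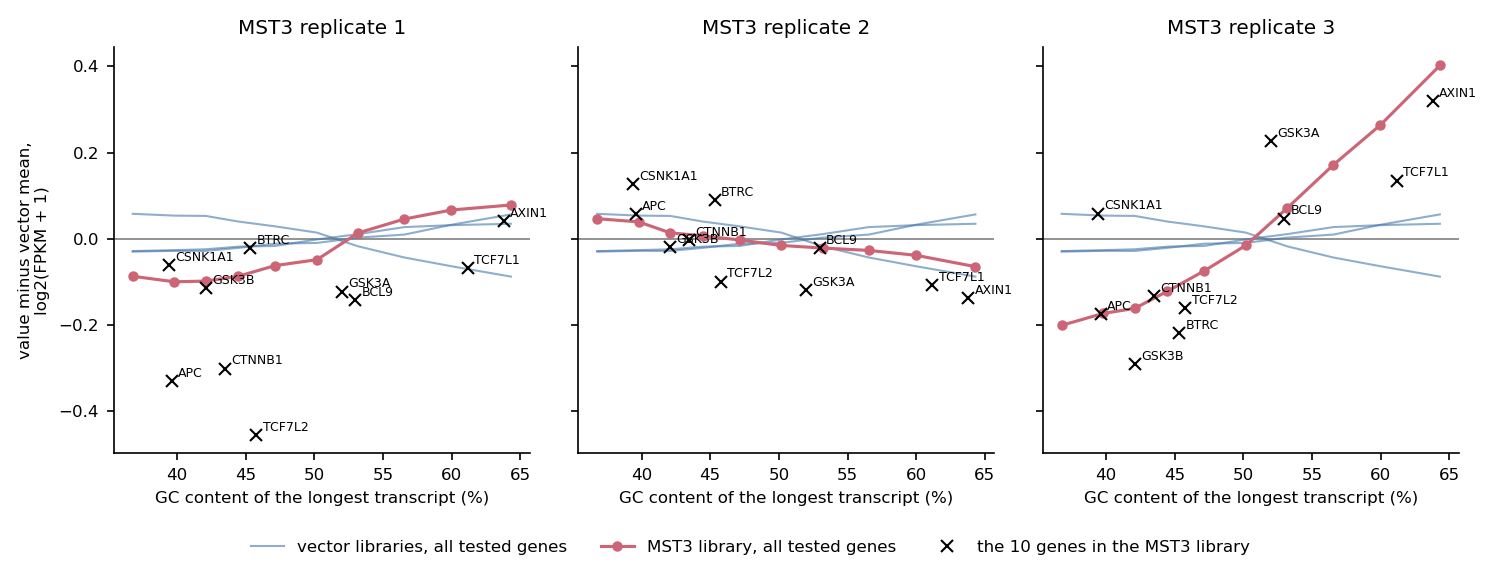
Value minus the vector mean on the log2(FPKM + 1) scale against GC content of the longest transcript (%), with 1 panel per MST3 library; the red line joins the medians of all tested genes in GC bins, blue lines are the same for the vector libraries, and crosses are the 10 members. In MST3 replicate 3 the median runs from -0.20 in the lowest to 0.40 in the highest GC bin, with AXIN1 and TCF7L1 at the upper end and APC and GSK3B at the lower; CSNK1A1, at 0.06, lies off that line.

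With those trends removed, CTNNB1 was at -0.13, -0.01 and 0.01 relative to the vector mean in MST3 replicates 1 to 3, and APC at -0.17, 0.03 and 0.01. Differences between the groups shrank by more than 1.5 times to -0.04 for CTNNB1, -0.04 for APC and -0.04 for GSK3B, and the groups of GSK3B then overlapped. AXIN1 in MST3 replicate 3 went from 0.32 to -0.04. TCF7L2 kept its separation, at -0.34, -0.09 and -0.06 in the MST3 libraries and with a difference of -0.16, so its lowest library was again MST3 replicate 1. The separation was narrow, with MST3 replicate 3 at -0.063 and vector replicate 3 at -0.045. The share of all tested genes without overlap after this step is not given. The difference of CSNK1A1 went from 0.04 to 0.14, with all MST3 libraries above the vector libraries at 0.08, 0.10 and 0.24. GSK3A in MST3 replicate 3 was still above the vector libraries, at 0.18. The difference of TCF7L1 was larger after this step, -0.12 against -0.01, with -0.13, -0.06 and -0.16 in the MST3 libraries. None of the 10 genes was called after this step either.

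**Figure D4:**
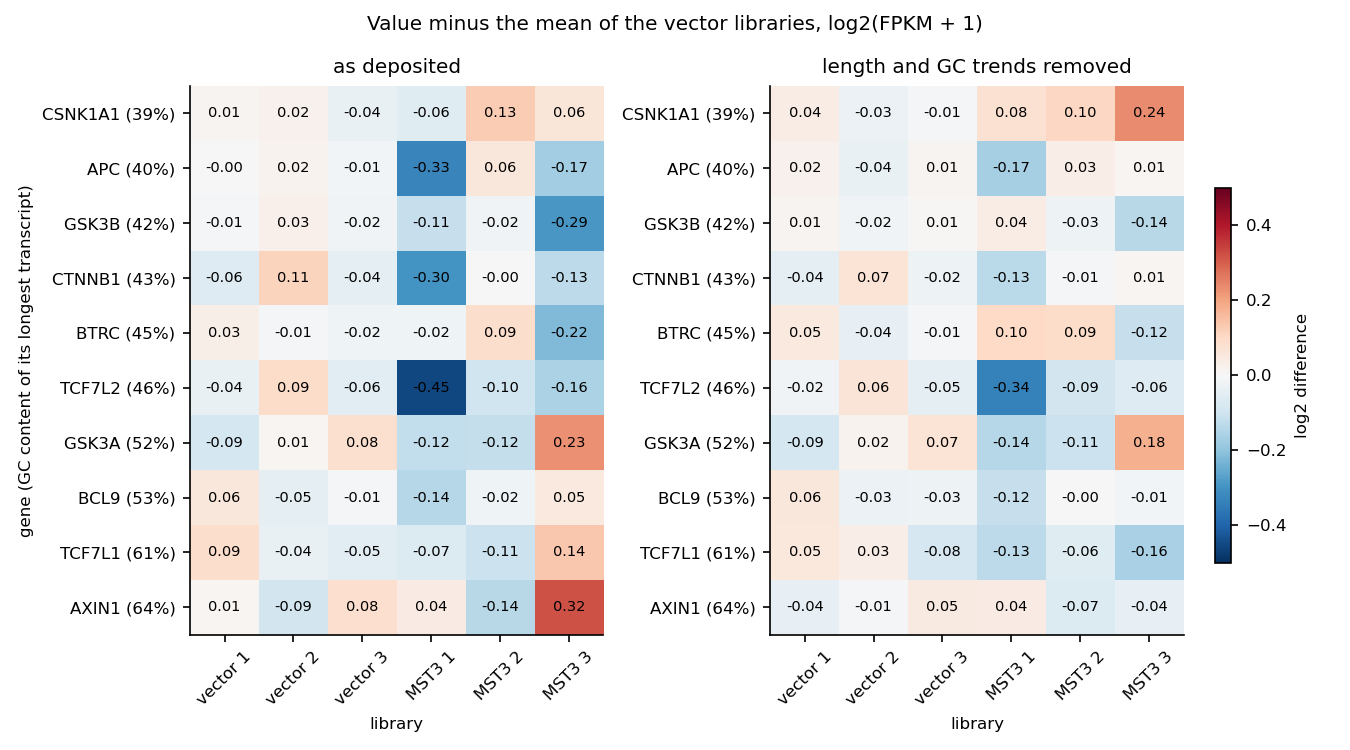
Each gene's value minus the vector mean in every library on the log2(FPKM + 1) scale, ordered by the GC content of its longest transcript, as deposited (left) and with length and GC trends removed (right). The low values of MST3 replicate 1 for TCF7L2, APC and CTNNB1 (-0.45, -0.33 and -0.30) shrink to -0.34, -0.17 and -0.13.

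The members covered a 13.3-fold range of levels, from 3.06 FPKM for APC to 40.8 FPKM for TCF7L2 as means of the 6 libraries. TCF7L2 was followed by CTNNB1 at 33.5, CSNK1A1 at 24.5, GSK3A at 15.6, GSK3B at 14.1, BCL9 at 10.5, TCF7L1 at 10.1, BTRC at 7.39 and AXIN1 at 6.39 FPKM. On this scale the kinases and the nuclear partners stood above the scaffolds APC and AXIN1. Neighbours whose ranges overlapped were TCF7L2 and CTNNB1, GSK3A and GSK3B, BCL9 and TCF7L1, and BTRC and AXIN1; TCF7L2 was nevertheless above CTNNB1 in 6 of 6 libraries. The top of this order rested on the gene length used. The deposited lengths join all annotated exons, which for CTNNB1, with 56 annotated transcripts, came to 11927 bases against 4735 in its longest coding transcript. With the longest coding transcript as length for every gene, an alternative chosen after seeing the data, CTNNB1 came to 84.3 and TCF7L2 to 66.4, so that their ratio went from 0.821 to 1.27, AXIN1 at 13.1 stood above BCL9 at 10.7, and APC was again the lowest at 3.56.

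Across the 6 libraries, CTNNB1 ran with TCF7L2 (Pearson's r = 0.956) and APC (r = 0.906), and AXIN1 ran with GSK3A (r = 0.804) and against BTRC (r = -0.929). These are descriptions over 6 values that share library composition. The 3 protein-coding genes most like CTNNB1 were PDIA6, CRLF3 and SEC24B, with r of 0.999, 0.998 and 0.996. Of 10878 protein-coding genes tested, 932 had an r of at least 0.9 with CTNNB1.

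The other parts of the Wnt pathway were counted in 6 lists that exclude the 10 members, and limma called 0 genes in each. Among the 19 other subunits and regulators of the destruction complex, 17 were tested, 6 above and 11 below 0, with a median difference of -0.09. TNKS, a tankyrase that marks axin for degradation, was at 14.3 ± 0.905 FPKM in the vector and 11.6 ± 2.41 in the MST3 libraries (difference -0.29, adjusted p = 0.719). RBX1, the RING subunit of the ligase that uses beta-TrCP, was at 11.9 ± 0.945 and 14.6 ± 3.50 (0.25, adjusted p = 0.719). CSNK1G2, the highest of this list, was at 36.2 ± 3.13 and 42.6 ± 9.46 FPKM (0.21, adjusted p = 0.726), so in these 3 genes the MST3 SD exceeded the vector SD as in the members. The differences of RBX1 and CSNK1G2 rested largely on 1 MST3 library each. Dropping MST3 replicate 1 left 0.08 for RBX1, and dropping MST3 replicate 3 left 0.05 for CSNK1G2. TNKS kept a difference of -0.16 once MST3 replicate 1, its lowest library at 9.37 FPKM, was dropped. Its MST3 replicate 3, at 11.3 FPKM, also lay below all vector libraries, while MST3 replicate 2, at 14.2 FPKM, lay among them.

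Of 20 nuclear partners and co-regulators of beta-catenin, 17 were tested, 7 above and 10 below 0, with a median of -0.05. AES, a short member of the Groucho/TLE co-repressor family, had the highest mean over the 6 libraries, at 25.6 ± 1.66 and 32.9 ± 6.56 FPKM (difference 0.34, adjusted p = 0.719), although LDB1, an adaptor of the beta-catenin co-activator complex, was above it in the vector group at 26.7 ± 0.781 FPKM. PYGO2, the Pygopus protein that BCL9 binds, was higher without overlap at 12.4 ± 0.637 and 13.8 ± 1.12 (0.14), and EP300, an acetyltransferase co-activator, lower without overlap at 9.25 ± 0.0604 and 8.41 ± 0.588 (-0.13), each with an adjusted p of 0.719. CHD8, a chromatin remodeller that binds beta-catenin, was at 5.13 ± 0.175 and 4.69 ± 0.393 FPKM (-0.11, adjusted p = 0.726). Without MST3 replicate 3 the difference was 0.20 for AES and 0.0797 for PYGO2, and without MST3 replicate 1 it was -0.075 for EP300 and -0.05 for CHD8.

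Beta-catenin also joins E-cadherin to the actin cytoskeleton at adherens junctions. Of 9 junction genes, 7 were tested, with 6 below and 1 above 0, and their median of -0.18 was the lowest of the 6 lists, at -0.13 with length and GC trends removed. E-cadherin (CDH1) was at 36.4 ± 1.47 FPKM in the vector and 30.4 ± 4.74 in the MST3 libraries (-0.26), alpha-catenin (CTNNA1) at 77.3 ± 5.12 and 67.5 ± 7.57 (-0.20), and vinculin (VCL) at 39.1 ± 1.62 and 33.7 ± 4.60 (-0.22), each with an adjusted p of 0.719 by limma. The groups did not overlap for VCL and did for CDH1 and CTNNA1. Without MST3 replicate 1 the difference was -0.11 for both VCL and CTNNA1. Plakoglobin (JUP), the closest relative of beta-catenin, was the highest of the list, and its difference was -0.04 (adjusted p = 0.946), or 0.13 without MST3 replicate 1 and -0.21 without MST3 replicate 3.

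The receptor and membrane list had 18 of 23 genes tested, 8 above and 10 below 0, with a median of -0.01. DVL1, a Dishevelled protein that couples receptors to the complex, was highest at 42.3 ± 3.41 and 52.6 ± 10.5 FPKM (0.29, adjusted p = 0.719), and LGR4, an R-spondin receptor, was at 3.88 ± 0.222 and 3.30 ± 0.503 (-0.19, adjusted p = 0.719). Without MST3 replicate 3 these differences were 0.14 and -0.12. The ligand and secretion list had 11 of 21 genes tested, 5 above and 6 below 0, with a median of -0.02. WLS, which carries Wnt proteins to the cell surface, was lower without overlap at 21.0 ± 0.513 and 18.9 ± 0.702 FPKM (-0.15, adjusted p = 0.719). WNT16 was the highest ligand at 48.4 ± 2.42 and 44.2 ± 5.61 FPKM (-0.13, adjusted p = 0.731), with a difference of -0.07 without MST3 replicate 3 and -0.23 without MST3 replicate 2.

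Genes that beta-catenin and TCF are known to activate are the readout of the pathway in RNA. Of 22 such targets, 17 were tested, 7 above and 10 below 0, with a median of -0.06 beside -0.01 over all tested genes. DKK1, a target that inhibits Wnt receptors in feedback, had the highest level of the list and was lower without overlap, at 139 ± 12.3 FPKM in the vector and 119 ± 8.49 in the MST3 libraries (-0.21, adjusted p = 0.719). BMP4, a secreted growth factor, was higher without overlap at 52.1 ± 1.60 and 65.2 ± 7.23 FPKM (0.31, adjusted p = 0.719 by limma). Its unadjusted p of 0.0183 by limma was the only one under 0.05 in the 6 lists, beside 5.38% of all tested genes. The stem cell surface protein CD44 was at 75.7 ± 1.34 and 66.5 ± 8.89 FPKM (-0.19, adjusted p = 0.719), and the Wnt deacylase NOTUM at 7.79 ± 1.58 and 9.84 ± 1.70 (0.31, adjusted p = 0.719). The difference was -0.12 for CD44 without MST3 replicate 1 and -0.30 without MST3 replicate 2, 0.18 for NOTUM without MST3 replicate 3 and 0.15 without vector replicate 2, and -0.14 for DKK1 without vector replicate 2. AXIN2, the most widely used reporter of pathway activity, was at 3.17 to 4.89 FPKM over the 6 libraries. Its means were 3.82 ± 0.757 FPKM in the vector and 4.44 ± 0.735 in the MST3 libraries, with overlap. The AXIN2 difference of 0.18 (adjusted p = 0.735 by limma) was opposite in sign to the list median. LGR5 reached no more than 0.0111 FPKM. Leaving out MST3 replicate 1, 2 or 3 in turn gave list medians of -0.05, -0.16 and -0.08 for the destruction complex list, 0.02, -0.02 and -0.08 for the nuclear partners, -0.11, -0.26 and -0.21 for the junction list, 0.04, 0.02 and -0.06 for the receptors, -0.04, 0.07 and -0.07 for the ligands, and -0.00, -0.01 and -0.10 for the targets. The sign of the median thus depended on 1 library for the nuclear partners and the ligands. For the receptors the sign was not stable. Their median also rose above 0 without vector replicate 1 (0.005) and without vector replicate 3 (0.001).

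**Figure D5:**
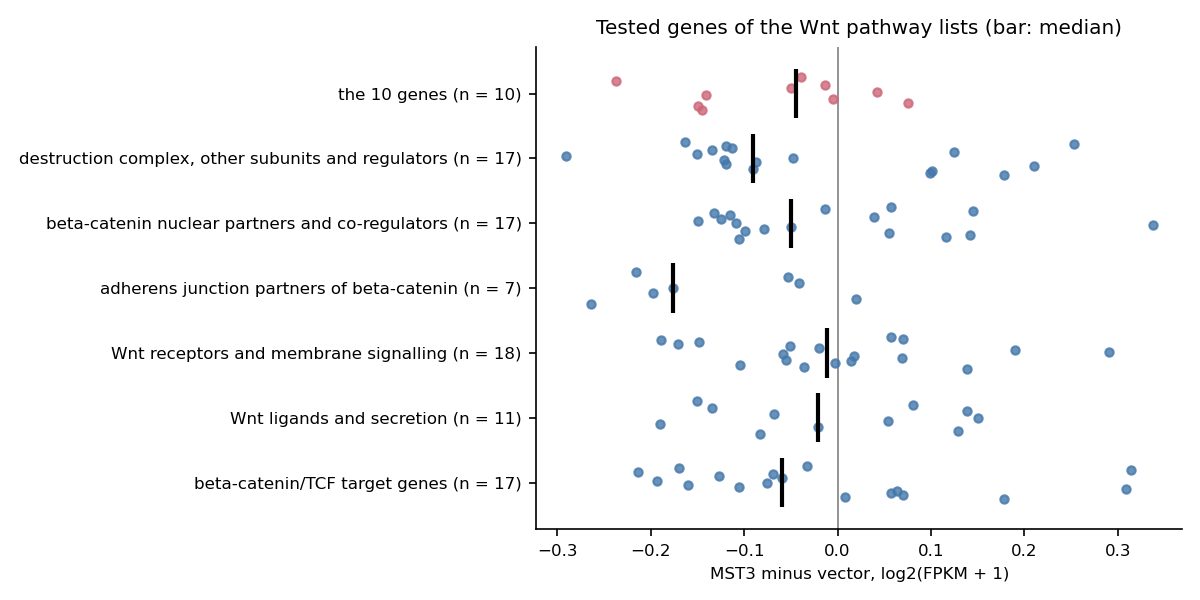
Difference between MST3 and vector libraries on the log2(FPKM + 1) scale for every tested gene of the members and of the 6 pathway lists (points: genes; bar: median). Each list lies on both sides of 0, and the medians run from -0.18 for the adherens junction list to -0.01 for the receptor list.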

How the data were processed

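RNA of 3 vector and 3 MST3 libraries was sequenced. Whether replicates were separate cultures is not in the labels, so the spread behind each p-value may be technical, and a p-value speaks of these 6 samples alone. The authors deposited FPKM values for each library with gene positions and lengths. HISAT2 is listed without a version per the submitters' processing notes; how genes were counted, with which strand setting and annotation, is not given in the sources used here. Coordinates of all 58735 entries with an Ensembl identifier equal those of GENCODE 29 on GRCh38, and the deposited lengths of the members equal the union of their annotated exons. FPKM multiplied by length gave whole reads for 100% of values within a tolerance of 0.01. Per read on 1 kb, the step was 0.0569 to 0.0583 FPKM in the vector and 0.0576 to 0.0627 in the MST3 libraries.

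After log2 transformation of FPKM + 1, the 13036 genes averaging 1 FPKM or more entered a two-sided limma test (version 3.58.1, R 4.3.3; lmFit, then eBayes with trend) without covariates. This scale understates changes of low genes. The limma-voom test was run on the recovered reads and scaled them to library totals, which the deposited FPKM do not follow exactly. Its median difference over all tested genes was 0.01, against -0.01 in the main fit. Length and GC trends were removed by natural splines with 3 degrees of freedom fitted to each library's deviations, for the 99.2% of tested genes with a GC value. The pipeline was tested on simulated reads without length or GC trends and with changes larger than any difference of the members. That test checks the code and does not show what would be detected among the members. Named genes are the 10 members, STK24, in each list the gene with the highest mean and up to 3 with the smallest p, and the 3 genes most like CTNNB1; others (BCL9L, TCF7, LEF1, AXIN2, LGR5, overlapping genes, marker genes) were named after their values were seen. The members and lists were chosen with earlier results of these data known. Alternatives changed the pseudocount (0.1, 0.01), the filter (0.1, 5, none), the scaling, the variance model, the trends, the replicate block and the libraries included. Ratios and figures used Python 3.11.15, scipy 1.17.1 and matplotlib 3.10.9.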

Additional observations from a re-analysis of the deposited data

How the results depend on the processing

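Over 23 alternatives to the main analysis the 10 members gave 229 differences, of which 214 kept their direction, 15 reversed and 0 passed the threshold. The smallest adjusted p was 0.226 by limma, for APC without MST3 replicate 2. Several alternatives could not move a difference, so they count among the 214 by construction. These are the filters, the fits without variance trend or with robust variance, the replicate block and the restriction to protein-coding genes. APC has no value where a mean of at least 5 FPKM was asked for. Removal of length and GC trends turned AXIN1 to -0.0228 and BTRC to 0.0254, equal FPKM sums turned GSK3A to 0.00556, and voom on recovered reads turned GSK3A to 0.0285 and TCF7L1 to 0.0187. Leaving out 1 library at a time gave -0.0474 to 0.181 for AXIN1, -0.12 to 0.054 for GSK3A, -0.000439 to 0.0934 for CSNK1A1, -0.12 to 0.0342 for BTRC, -0.0872 to 0.0342 for TCF7L1, -0.0819 to 0.013 for BCL9, -0.212 to 0.127 for JUP and -0.0576 to 0.272 for the log2 ratio of GSK3A to GSK3B. It gave a members' median of -0.0846 to -0.023, with 5 to 8 members lower, 2 to 5 without overlap and 7 to 10 with a larger MST3 SD. Members without overlap numbered 0 with equal FPKM sums, 1 with quantile normalization and 1 with voom. Groups separate more easily when a library is left out, and the share of all tested genes without overlap is not given for these alternatives. These counts are therefore no result about the members. The level ratio of CTNNB1 to TCF7L2 became 1.27 with the longest coding transcript as length. Same-numbered libraries correlated at 0.0158, 0.226 and 0.0350, so the numbers were not taken as pairs; the replicate block left every difference as it was, called 1 gene, and raised the genes at an unadjusted p under 0.05 from 701 to 1338, with TCF7L2 (p = 0.0483) among them. TCF7L2 was also under an unadjusted 0.05 by limma with quantile normalization (adjusted p = 0.693), sample weights (adjusted p = 0.632) and the replicate block with the length trend removed (adjusted p = 0.485). Over all tested genes, 737, 914 and 1335 were under 0.05 in these settings, in that order. Without MST3 replicate 2, TCF7L2 (adjusted p = 0.239) and APC (adjusted p = 0.226) were under it, as were 2554 of all tested genes. Median-of-ratios factors were equal in all libraries, so that alternative repeats the main one. Counting error was 1.21% to 3.91% of a member's level, below the spread of the MST3 libraries for each of the 10.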
